A study of Saccharomyces cerevisiae with 4 samples.

Results

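Of the 6218 yeast probes spotted on the arrays, 480 were PCR products from the 3′ untranslated region (3′ UTR) of a gene, and the following describes how the RNA read by those 480 probes came down with the RNA-binding protein Whi3. The probes were chosen by name alone, as all PCR products whose array name carries the 3′ UTR suffix. The other 5738 probes read coding sequences or non-coding RNAs. A coding probe of the same gene was on the array for 390 of the 480, and 90 3′ UTR probes had no such partner. Most 3′ UTR probes (427) were printed 4 times on each array, and 53 were printed 12 times.

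Messages were immunoprecipitated from log phase budding yeast of the W303 background grown in rich glucose medium. One strain carried Whi3 with a TAP tag, expressed from its own promoter (Whi3-TAP, 2 arrays). The control strain carried a tagged Whi3 from which the RNA recognition motif had been deleted (Whi3-dRRM-TAP, 2 arrays), so both groups have the tag and neither group is untagged. On each array the immunoprecipitated RNA (Cy3) was hybridised together with total RNA of the same strain (Cy5). Per the study's methods this was done in 2 independent experiments, 1 and 2. The labels number the 2 arrays of a group as replicates and do not say of which kind. The tagged protein was pulled down from whole extract, so each ratio is an average over all cells of a culture.

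Whi3 is a restraint on the G1 cyclin Cln3 and holds CLN3 mRNA through its RNA recognition motif. The 3′ UTR of a yeast mRNA follows the stop codon, ends in the poly(A) tail, and carries many of the sequences that RNA-binding proteins read. It also differs between gene copies whose coding sequences are nearly the same, so a probe there can tell apart copies that a coding probe may read together. The members fit that description: 109 belonged to genes of cytoplasmic ribosomal proteins (64 of the large and 45 of the small subunit), 19 to hexose transporters and glucose sensors, 19 to heat shock proteins and chaperones, 33 to subtelomeric and repeat families and 8 to histones. Other groups were plasma membrane transporters and pumps (26), cell wall proteins and wall synthesis (23), glycolysis and fermentation (15), and translation factors (10). No 3′ UTR sequence is shown, because the array annotation gives the position of the whole gene for 389 of the 390 probes with a coding partner and the sources used here do not give the extent of the spotted fragment. The probes are double-stranded DNA, so a transcript of the other strand would also be read. Between annotated gene ends, 88 of the 453 genes with a known downstream neighbour had a gene on the opposite strand ending within 300 bases.

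Many 3′ UTR probes gave no usable spot, and Whi3-dRRM-TAP array 1 was the weakest. Spots without a negative flag made up 51.3% and 74.4% of 3′ UTR spots on the Whi3-TAP arrays (1 and 2) and 19.8% and 59.5% on the Whi3-dRRM-TAP arrays. Coding probes had 82.0%, 87.4%, 48.5% and 78.0% in the same order, and coding probes from the same printing plates 82.3%, 89.6%, 43.3% and 77.4%. In all, 311, 413, 150 and 367 of the 480 probes had a value on these arrays. A probe counted as above background where its foreground exceeded the local background by 2 background SDs, which in the immunoprecipitate held for 136, 364, 16 and 138 probes. On all 4 arrays 131 members had a value (27.3%, against 74.9% of the other probes), while 164 had values on 3 arrays, 80 on 2, 65 on 1 and 40 on none. Of those short of 4 arrays, 152 lacked only Whi3-dRRM-TAP array 1. A comparison over the 131 therefore covers the members bright enough for the weakest array, and its counts do not stand for all 480.

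**Figure D1:**
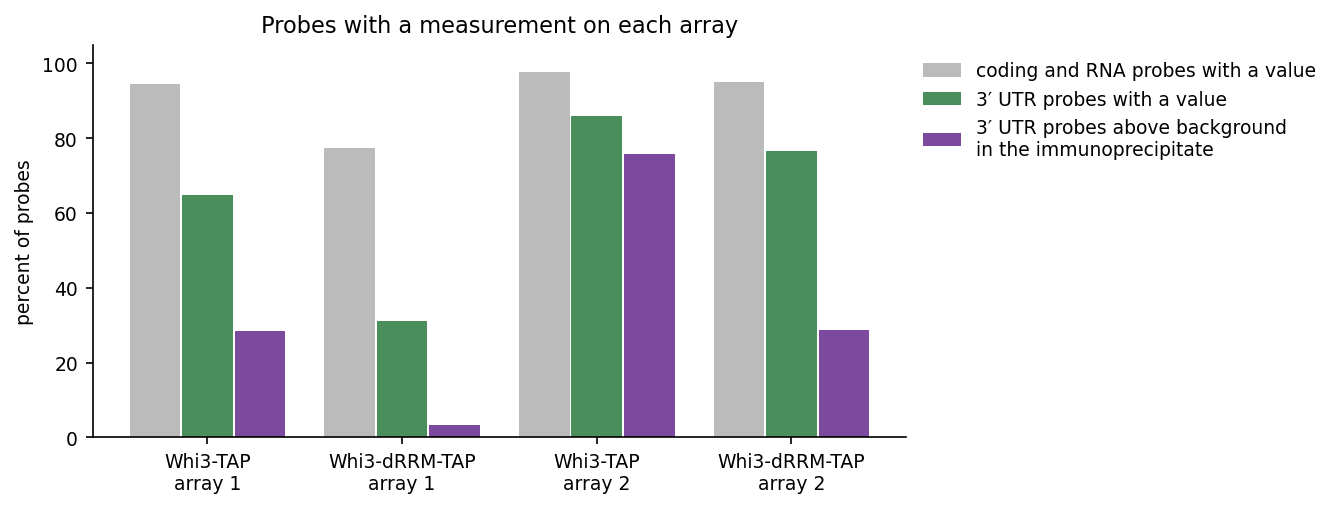
Percent of probes with a value on each of the 4 arrays, for coding and RNA probes (grey, of 5738) and 3′ UTR probes (green, of 480), and percent of 3′ UTR probes above background in the immunoprecipitate (purple). On Whi3-dRRM-TAP array 1 only 31.2% of 3′ UTR probes had a value and 3.33% were above background.

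The main measure is the net log ratio, which asks which RNAs the intact protein brought down beyond what the control protein did. Within each experiment the log2 ratio of immunoprecipitate over total RNA of Whi3-dRRM-TAP was subtracted from that of Whi3-TAP, and the experiments were averaged, so that 0 is the typical RNA of the arrays and a dye effect cancels. Over the 131 members it ran from -2.82 to 2.47 with a median of 0.05 (0.18 in experiment 1 and -0.15 in experiment 2), beside a median of -0.08 over all 4426 probes with values on every array. It was positive in both experiments for 42 members, against 32.4% of all probes, and negative in both for 40, against 40.8%, and the experiments differed in sign for 49. The study's limit of 1.65 SD above the mean of all probes lay at 1.06. At or above it were 14 of the 131 members (10.7%), against 5.11% of all probes. At or below the mirrored limit of -1.21 were 3 members (2.29%), against 4.97%. Coding probes printed from the same plates (112) had a median of 0.17, and 10.7% of them lay above the limit, the same share as among 3′ UTR probes. With dim probes left out, the limit was set again over the 3228 probes kept. Above that higher limit lay 5 of 102 members, against 5.02% of all probes, and no excess was left there. Of the 14 members above 1.06, 8 were kept, so part of the fall came from the limit. The counts also leaned on single arrays. Without Whi3-dRRM-TAP array 1 more members had values, and the limits were set again over those probes. Above the upper one lay 23 of 283 (5.11% of all probes), and 10 lay below the lower one. Without Whi3-TAP array 1, again with its own limits, it was 12 of 142 below. The share of all probes below the lower limit was not computed for these settings.

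In the blocked limma test, adjusted by Benjamini-Hochberg over all 4426 probes, 0 members passed in either direction (0.00% of all probes, smallest adjusted p = 0.0697), while at an unadjusted p under 0.05 there were 20 higher and 17 lower (12.7% and 16.2% of all probes), near the background. Without the experiment as a block, limma called 2 members higher, SAM1 (adjusted p = 0.0418) and MRH1 (0.0467), against 1.60% of all probes called higher, and 0 lower. The block leaves 1 residual degree of freedom for each probe, and with 4 arrays the precision of each value is low. Across members, which are not independent replicates, net log ratios correlated between experiments with Pearson r = 0.54 and Spearman rho = 0.54. For the 88 members with at least 2 good spots on every array r was 0.70, and for the 43 that rested on 1 spot on some array it was 0.40. Likewise it was 0.77 for the 41 members printed 12 times and 0.42 for the 90 printed 4 times. Experiments thus followed each other more closely where more spots were averaged.

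**Figure D2:**
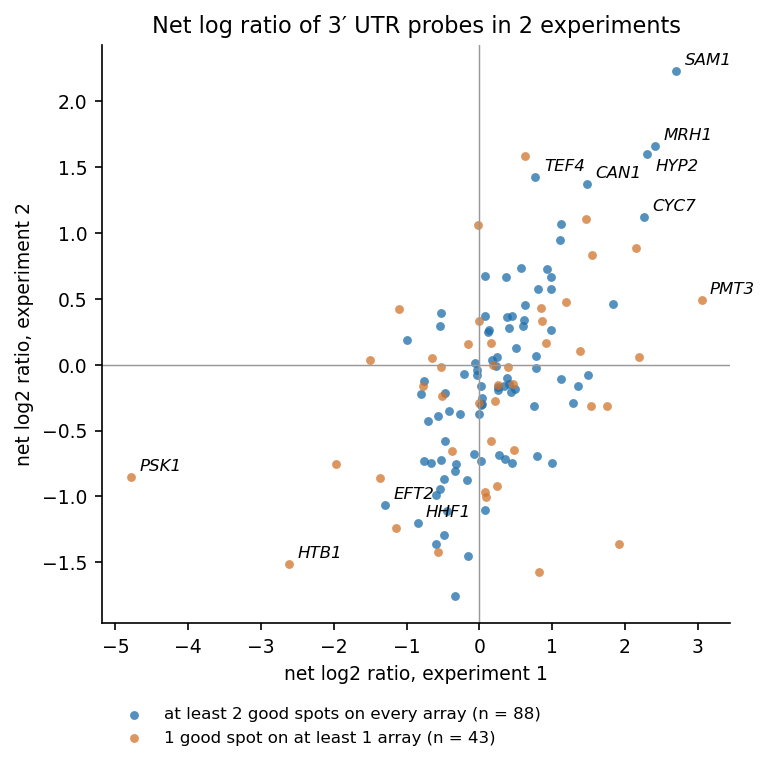
Net log2 ratio of each of the 131 3′ UTR probes in experiment 1 (x axis) and experiment 2 (y axis), coloured by the number of good spots. SAM1, MRH1 and HYP2 lie at the upper right, with values above 1.5 in both experiments, while PMT3 and PSK1 lie far out in experiment 1 only and rest on 1 spot on some array.

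The highest member was SAM1 (YLR180W, chromosome 12), which encodes S-adenosylmethionine synthetase, the enzyme that makes the methyl donor of the cell. Its 3′ UTR probe had log2 ratios of immunoprecipitate to total RNA of 2.37 and 1.59 on the Whi3-TAP arrays of experiments 1 and 2, and of -0.34 and -0.64 on the control arrays. Both Whi3-TAP values lay above both control values. The net log ratio was 2.47 ± 0.34 (log2, SD, n = 2 experiments), or 5.53-fold, rank 9 of all 4426 probes (limma, adjusted p = 0.0697). The coding probe of SAM1 had 1.74 ± 0.11, and total RNA of the 3′ UTR probe, Whi3-TAP minus Whi3-dRRM-TAP, differed by -0.03 on the log2 scale, or by -0.35 relative to the median of all probes. The gene on the other strand, VTA1, ends 267 bases away, and its own coding probe had a net log ratio of -0.55.

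Several other high members encode membrane transporters or their relatives. MRH1 (YDR033W, chromosome 4), a plasma membrane protein related to the heat shock protein Hsp30, had ratios of 2.60 and 1.75 in Whi3-TAP against 0.19 and 0.08 in Whi3-dRRM-TAP. Its net log ratio was 2.04 ± 0.53 (4.1-fold, rank 21, limma adjusted p = 0.0697), beside 1.80 ± 0.25 for its coding probe. Up to 58% of the pixels of its spots were saturated in the immunoprecipitate, so the scanner limits that value.

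CAN1 (YEL063C), the gene of the arginine permease, had 1.72 and 1.08 against 0.24 and -0.30, and a net log ratio of 1.43 ± 0.08 (limma, adjusted p = 0.0712). The study lists a can1 mutant allele in its W303 background, so the RNA read here is of that allele in both groups. The CAN1 signal was not above background in the Whi3-dRRM-TAP immunoprecipitate. With the control raised to the smallest signal above background on its arrays, the Whi3-TAP immunoprecipitate signal was 3.22-fold higher. SNQ2 (YDR011W), a multidrug pump of the ABC family, had 1.09 and 1.31 against -0.37 and 0.20, with a net log ratio of 1.28 ± 0.25 (2.43-fold, limma adjusted p = 0.0759). For CAN1 and SNQ2 the groups did not overlap, which their choice as high members largely gives. Their coding probes had net log ratios of 0.97 and 1.14. SNQ2 rested on 1 good spot on some array and was above background in total RNA on none.

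Among the translation factors, which load and move tRNA and ribosomes, HYP2 and TEF4 were high. HYP2 (YEL034W, chromosome 5), an isoform of eIF5A, had 2.67 and 1.24 in Whi3-TAP against 0.36 and -0.36 in Whi3-dRRM-TAP. Both Whi3-TAP values lay above both controls, and the net log ratio was 1.95 ± 0.50 (3.87-fold, rank 27, limma adjusted p = 0.0697). The coding probe had 1.11 ± 1.57, with 2.22 in experiment 1 and 0.00 in experiment 2, so the coding probe stood out in 1 experiment and the 3′ UTR probe in both. Up to 90.5% of the pixels of the 3′ UTR spots were saturated in the immunoprecipitate of Whi3-TAP array 2, so the scanner limits this fold and rank. The next gene on the same strand, MTC7, starts 29 bases beyond HYP2, and its coding probe had a net log ratio of 2.09.

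TEF4 (YKL081W), the gamma subunit of elongation factor 1B, had 1.59 and 1.25 against 0.82 and -0.17, and a net log ratio of 1.10 ± 0.46 (2.14-fold). Its coding probe was higher, at 1.84 ± 0.09. Both TEF4 probes were above the limit, and the same was true of SAM1, MRH1, HYP2 and SNQ2.

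CYC7 (YEL039C, chromosome 5), the isoform of cytochrome c made when oxygen is low, had one of the highest ratios in Whi3-TAP but was also above 0 in the control. Its 3′ UTR probe had 2.49 and 2.02 in Whi3-TAP against 0.23 and 0.90 in Whi3-dRRM-TAP, a net log ratio of 1.69 ± 0.81 (3.23-fold, limma adjusted p = 0.0863). The coding probe was near the middle of the distribution, at 0.27 ± 0.80. The neighbour UTR2, a cell wall protein gene on the opposite strand, ends 179 bases from CYC7, and its coding probe had a net log ratio of 1.26. The partial list of Whi3 targets that the study prints includes UTR2 and not CYC7. Which of the transcripts the CYC7 3′ UTR probe read was not tested. Up to 75% of the pixels of the CYC7 3′ UTR spots were saturated in the immunoprecipitate of Whi3-TAP array 2, which limits its fold in the same way.

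The signalling genes DBF2 and RAS1 were high with their 3′ UTR probes and not with their coding probes. DBF2 (YGR092W), a kinase of the mitotic exit network, had 0.82 and 0.72 against -1.33 and -0.17, with a net log ratio of 1.51 ± 0.89 that rested on 1 good spot on some array. In Whi3-TAP its immunoprecipitate signal was 1.54-fold higher, with the control raised as for CAN1, and its coding probe had 0.04 ± 0.22. RAS1 (YOR101W), a Ras GTPase that activates adenylate cyclase, had 0.38 and 0.42 against -0.73 and -0.66. That is a net log ratio of 1.09 ± 0.03 (2.13-fold, limma adjusted p = 0.0802), the closest agreement of the experiments among the 14 high members, while the coding probe had -0.34 ± 0.31. The RAS1 probe thus lay below the middle in the control rather than far above it in Whi3-TAP.

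Of the remaining high members, PMT3, SKN1, SDH9 and YIL060W had their higher net log ratio in experiment 1, with the lower of their control ratios on Whi3-dRRM-TAP array 1, and HMG1 had its higher value in experiment 2. PMT3 (YOR321W), a protein O-mannosyltransferase of the secretory pathway, had 1.22 and 0.60 against -1.84 and 0.11, a net log ratio of 1.77 ± 1.81 from 3.05 and 0.49. SKN1, which acts in beta-glucan synthesis of the cell wall, had 1.15 ± 0.98, and SDH9, a relative of a succinate dehydrogenase subunit, 1.19 ± 0.50. YIL060W had 1.13 ± 1.51, with 2.19 in experiment 1 and 0.06 in experiment 2. HMG1, the HMG-CoA reductase of sterol synthesis, had 1.12 and 0.91 against 0.49 and -0.67, and a net log ratio of 1.11 ± 0.68 beside 0.89 ± 0.11 for its coding probe. For PMT3, SKN1, SDH9 and HMG1 no control immunoprecipitate was above background. With the control raised as for CAN1, the Whi3-TAP signal was 1.44-fold, 1.41-fold, 1.21-fold and 1.49-fold higher. Just below the limit was FAA4, an acyl-CoA synthetase, at 1.03 ± 0.12.

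All 14 members above the limit were positive in both experiments and above background in the Whi3-TAP immunoprecipitate of at least 1 array. Fewer (8) were above background in total RNA on any array, 8 had at least 2 good spots on every array, and 7 met both conditions. An immunoprecipitate of Whi3-dRRM-TAP was above background for 7 of the 14. Because the 14 were chosen on the mean of the experiments, their positive sign in both is largely given by the choice. A lack of overlap between the groups is likewise largely given, here and for other members named for extreme values. How many of all probes had groups that did not overlap was not computed. Of the 14, 6 lay above a limit set in the same way within each experiment, as did 92 of the 226 probes above the limit among all 4426.

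**Figure D3:**
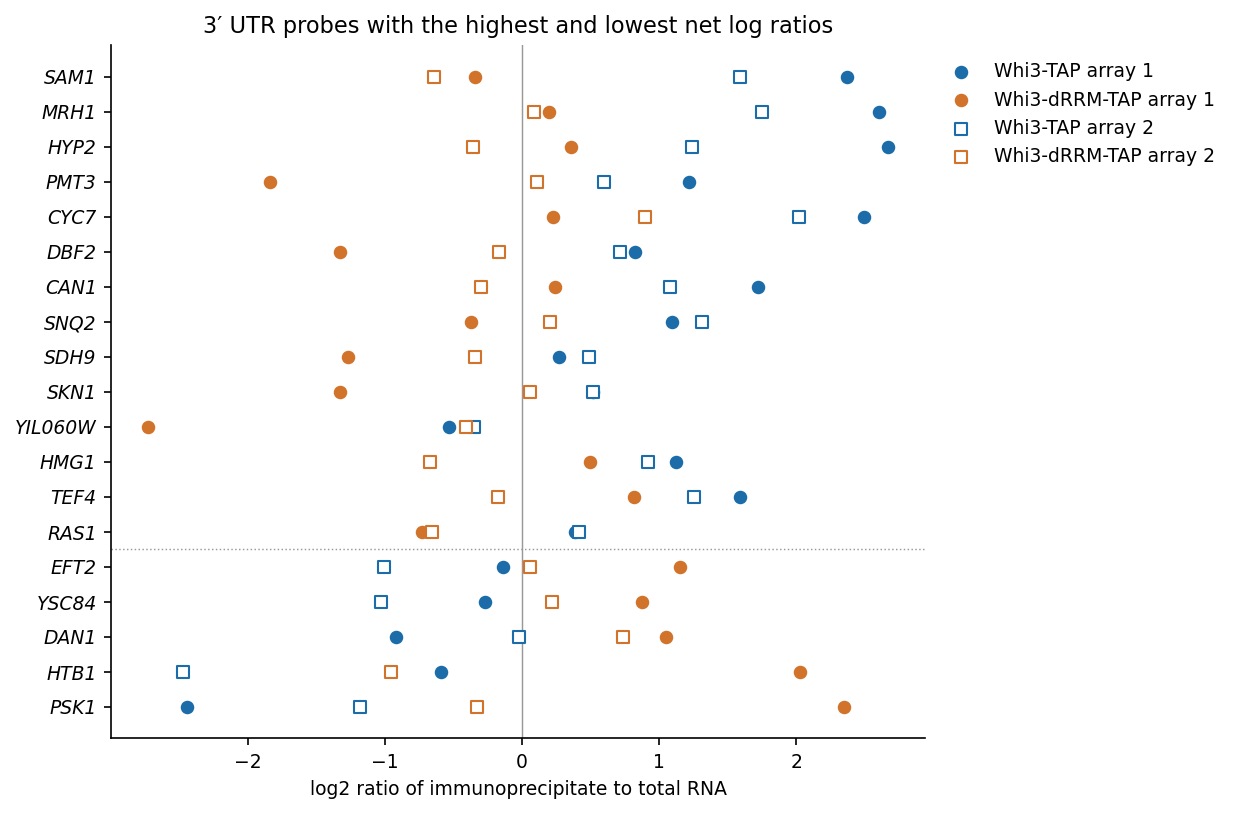
Log2 ratio of immunoprecipitate to total RNA on each array for the 14 3′ UTR probes above the limit and, under the dotted line, the 5 lowest by the naming rule, with Whi3-TAP in blue, Whi3-dRRM-TAP in orange, experiment 1 as filled circles and experiment 2 as open squares. SAM1, MRH1, HYP2 and CYC7 have both Whi3-TAP values at least as high as 1.24, and the ratio of YIL060W stands apart only on Whi3-dRRM-TAP array 1.

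The 5 lowest members by the naming rule came from unrelated genes, 1 of them a histone gene. EFT2 (YDR385W), elongation factor 2, had ratios of -0.14 and -1.01 in Whi3-TAP against 1.15 and 0.06 in Whi3-dRRM-TAP, so the Whi3-TAP values lay below the control values. Its net log ratio was -1.18 ± 0.16 (limma, adjusted p = 0.0772), whereas its coding probe had 0.34 ± 0.01. The near-identical copy EFT1 had -0.13 with its own 3′ UTR probe. HTB1 (YDR224C), histone H2B, had -0.59 and -2.47 against 2.03 and -0.96, so that the groups overlapped, with a net log ratio of -2.07 ± 0.78 (limma, adjusted p = 0.0741). The value of 2.03 came from 1 good spot on Whi3-dRRM-TAP array 1, and the coding probe had -0.10 ± 0.17.

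YSC84, an actin-binding protein, had -1.19 ± 0.07 with its 3′ UTR probe and -1.69 ± 0.08 with its coding probe. DAN1, a cell wall mannoprotein of anaerobic cells, had -1.36 ± 0.86. The lowest value belonged to PSK1, a PAS domain kinase, at -2.82 ± 2.78, with -4.79 in experiment 1 and -0.85 in experiment 2. It rested on 1 spot, with up to 78% of its pixels saturated, and was above background in no Whi3-TAP immunoprecipitate.

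The 3′ UTR and coding probes of a gene could be compared for 96 genes with values for both on every array. The difference, 3′ UTR minus coding, had a median of -0.13 in net log ratio (0.05 in experiment 1 and -0.22 in experiment 2) and ran from -2.08 to 1.48. It was positive in both experiments for 26 genes, negative in both for 39, and of opposite sign for 31. Across genes the probes had Pearson r = 0.55 and Spearman rho = 0.47, and 84 of the 96 differed by less than 1. Both probes were above the limit for 5 genes, the 3′ UTR probe alone for 6 and the coding probe alone for 2. No gene passed a limma test of the difference with the experiment as a block (0 higher and 0 lower of 96, 0.00%, smallest adjusted p = 0.325), while at an unadjusted p under 0.05 there were 5 higher and 6 lower.

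The widest gaps had the 3′ UTR probe higher for DBF2 (1.48 ± 1.11), RAS1 (1.44 ± 0.34), CYC7 (1.42 ± 1.60), PSR1 (1.29 ± 0.82), a plasma membrane phosphatase, and PHO3 (1.03 ± 0.00), an acid phosphatase. On the other side were HHF1 (-2.08 ± 0.35), HTB1 (-1.96 ± 0.95), EFT2 (-1.52 ± 0.15), HHT1 (-1.37 ± 0.60) and FUN19 (-1.29 ± 0.37). Of these 5, 3 are histone genes.

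Within Whi3-TAP alone, 3 of 96 genes (3.12%) had a 3′ UTR probe higher over total RNA than the coding probe in the limma test, and 0 had a lower one. They were PIR1, a cell wall glycoprotein (difference 1.80, adjusted p = 0.0373), PSR1 (1.97, adjusted p = 0.0373) and PHO3 (1.47, adjusted p = 0.046). In Whi3-dRRM-TAP the count was 0 of 96 (0.00%). Array by array, over all genes with both values, the probes correlated across genes with r = 0.44 and 0.62 on the Whi3-TAP arrays (245 and 335 genes) and 0.12 and 0.42 on the control arrays (108 and 294 genes). The array with the fewest good spots was also the one on which the probes of a gene followed each other least.

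**Figure D4:**
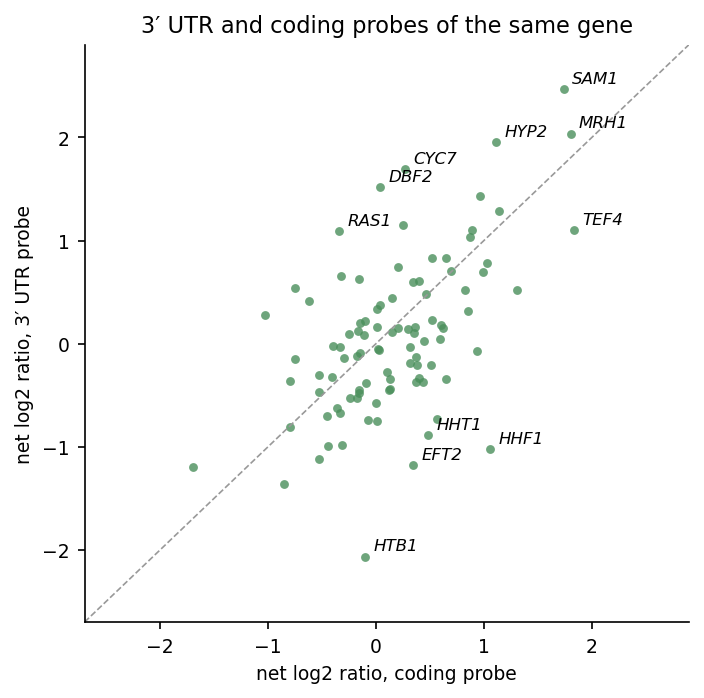
Net log2 ratio of the coding probe (x axis) and of the 3′ UTR probe (y axis) of 96 genes, as means of 2 experiments, with the line of equal values dashed. SAM1 and MRH1 are high with both probes, CYC7, DBF2 and RAS1 with the 3′ UTR probe only, and the histones HHF1, HTB1 and HHT1 lie below the line.

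Histones were the family measured most completely, with values on every array for all 8 members. Their net log ratios had a median of -0.63, beside -0.08 over all probes, with 6 negative and 2 positive in both experiments. HHF1 (YBR009C), a gene of histone H4, had ratios of -0.71 and -1.42 in Whi3-TAP against 0.14 and -0.22 in Whi3-dRRM-TAP, so the groups did not overlap. Its net log ratio was -1.03 ± 0.25, and that of its coding probe 1.06 ± 0.10. The other H4 gene, HHF2, had 0.97 and 0.28 against -0.02 and -0.29 with its 3′ UTR probe, a net log ratio of 0.78 ± 0.29 beside 1.03 ± 0.12 for its coding probe. The H4 copies therefore had opposite signs at their 3′ UTR probes and nearly the same value at their coding probes. For histone H3 the same held in direction, with -0.88 ± 0.57 for HHT1 and 0.23 for HHT2 at the 3′ UTR probes and 0.48 and 0.52 at the coding probes. Coding probes of such copies can read each other's transcript, and how far they did was not tested.

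Ribosomal protein genes made up the largest family. Of 109 members, 54 had no coding partner on the array, and 30 had a net log ratio. The median of the 30 was -0.37 (17 negative and 13 positive, beside 2466 negative of all 4426 probes), with 0 above the upper limit and 0 below the lower one, against 5.11% and 4.97% of all probes, and the other 101 members with a value had a median of 0.11. By experiment the medians were 0.09 and -0.43 for the large subunit and -0.32 and -0.24 for the small subunit, so the large subunit's median was below 0 in experiment 2 only. Coding probes of ribosomal proteins had a median net log ratio of -0.09 (42 negative of 80). More members (67) had both Whi3-TAP arrays, and there the ratio of immunoprecipitate to total RNA was negative for 55 of 67. Their median was -0.57 beside -0.01 over all probes, of which 2900 of 5692 were negative. The coding probes had nearly the same median in Whi3-TAP, -0.63 over 82 genes (75 negative). By array the 3′ UTR medians were -0.32 on Whi3-TAP array 1 (69 probes) and -0.94 on array 2 (89). In Whi3-dRRM-TAP the ribosomal 3′ UTR probes were negative for 21 of 32, with a median of -0.16. In experiment 2 alone the net log ratio was negative for 61 of 77 ribosomal 3′ UTR probes, with a median of -0.49 beside -0.07 over all probes. Among the other 3′ UTR probes it was negative for 162 of 274, with a median of -0.14. The ribosomal coding probes had a median of 0.12 over 81 (34 negative). The negative share of all probes was not computed for experiment 2. The share of negative net log ratios on all 4 arrays was thus close to that of all probes, whereas most ribosomal 3′ UTR probes were negative in the ratio to total RNA. RPP2A, an acidic stalk protein of the large subunit, went the other way, with 0.71 and 0.86 in Whi3-TAP against -0.28 and 0.19 and a net log ratio of 0.83.

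**Figure D5:**
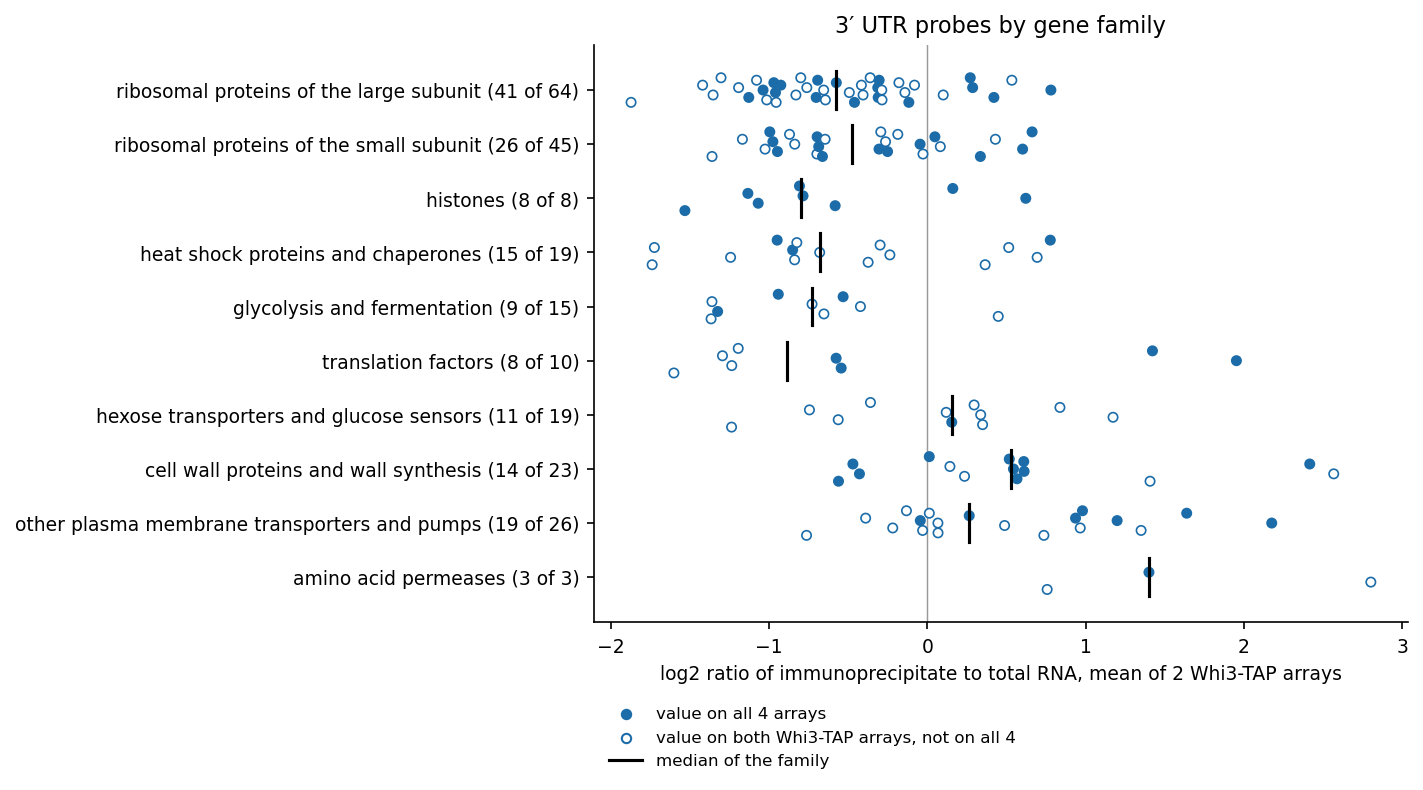
Log2 ratio of the Whi3-TAP immunoprecipitate to total RNA (mean of 2 arrays) for 3′ UTR probes of 10 gene families, with the number measured on both arrays of all members in brackets, filled points for probes with values on all 4 arrays and black bars for medians. Ribosomal proteins, histones, chaperones and glycolytic enzymes lie mostly left of 0, and cell wall proteins, transporters and amino acid permeases mostly at or right of 0.

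The 3′ UTR probes of the remaining families divided along similar lines in Whi3-TAP over total RNA. Medians were -0.68 for heat shock proteins and chaperones (15 measured of 19), -0.73 for glycolysis and fermentation (9 of 15) and -0.88 for translation factors (8 of 10, HYP2 and TEF4 being the exceptions above 0). They were 0.53 for cell wall proteins (14 of 23), 0.26 for other plasma membrane transporters and pumps (19 of 26) and 0.15 for hexose transporters and sensors (11 of 19). The chaperones SSA1 and SSA2, cytosolic Hsp70 proteins, were at -1.72 and -1.74. All 3 amino acid permeases had means above 0, with 1.40 for CAN1 and 0.76 for LYP1, the lysine permease. The third, ALP1, had 5.86 and -0.26 on Whi3-TAP arrays 1 and 2 and was above background on neither, so its mean is not read as a level.

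These medians describe the ratio in 1 group, in which a dye effect stays. In net log ratio, where fewer members had values, the medians were 0.38 for the cell wall (10), 0.37 for other transporters (7), 0.48 for translation factors (4), -0.09 for glycolysis (3) and -0.44 for chaperones (3). The translation factors changed sign between the measures, and of their members only HYP2, TEF4, EFT1 and EFT2 had a net log ratio. By experiment the medians were 0.59 and -0.01 for the cell wall, 0.81 and 0.36 for other transporters and 0.82 and -0.65 for glycolysis. Those of translation factors and chaperones kept their sign. In experiment 2 alone, with more members, medians were -0.08 for the cell wall (17), -0.03 for other transporters (23) and -0.09 for hexose transporters (13). They were -0.31 for glycolysis (11), -0.35 for chaperones (18) and -0.66 for translation factors (9), beside -0.07 over all probes.

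In limma tests of each group's ratio against 0, 17 of 131 members were higher and 14 lower than the middle in Whi3-TAP (10.2% and 8.74% of all probes), and 8 and 5 in Whi3-dRRM-TAP (13.0% and 8.81%). Members higher in both groups were PIR1, PMP1, PMP2, HSP33, GAL3 and YER181C. PIR1 had the highest ratios in both groups, 2.80 and 2.03 in Whi3-TAP and 1.31 and 2.11 in Whi3-dRRM-TAP, so these overlapped and the net log ratio was 0.71 ± 1.11. PMP1, a small proteolipid that regulates the plasma membrane proton pump, had 1.95 and 1.33 against 1.14 and 0.75, with up to 75% of the pixels saturated in the immunoprecipitate of Whi3-TAP array 2, which limits the value of 1.33. Its relative PMP2 had 1.00 and 0.96 against 0.63 and 0.60. For both the values stayed above 0 without the RNA recognition motif.

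Members lower in both groups were ADH1, the main alcohol dehydrogenase, ASN2, an asparagine synthetase, URA8, a CTP synthase, and YNL134C. Those lower in Whi3-TAP alone included the histones HHF1, HHT1 and HTB2 and the ribosomal proteins RPL4A, RPL13B, RPL17B, RPL35B and RPS18B. By family, the calls in Whi3-TAP were 1 higher and 4 lower of 17 for the large subunit, 0 and 1 of 13 for the small subunit, 0 and 3 of 8 for histones, and 4 and 0 of 7 for other transporters and pumps. Whether a member differed between the groups is the net log ratio test, in which none passed. RAS1 was the only member lower in Whi3-dRRM-TAP and not in Whi3-TAP (-0.69 ± 0.05, adjusted p = 0.0308).

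The array carried 50 pairs of ribosomal protein gene copies named A and B in which both had a 3′ UTR probe. Both copies had a net log ratio in 2 pairs, RPL9 (-0.38 for RPL9A and 0.10 for RPL9B) and RPS1 (0.03 and -0.37). In experiment 2 alone 27 pairs could be compared, and the copies differed by a median of 0.65 in size. RPL26 differed most, at -0.17 for RPL26A and -1.70 for RPL26B. RPS1 differed least, at -0.20 and -0.24. In Whi3-TAP over total RNA, 17 pairs differed by a median of 0.49. The widest gap was RPL41, a very short protein of the large subunit, whose A copy had -0.65 and -0.50 and B copy -1.77 and -1.97. The RPL41 copies did not overlap between arrays, but the pair was picked for its wide gap on these same values. No replicate is at hand for the values of experiment 2 alone.

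Total RNA was also compared between the strains, in the Cy5 channel. All probes were shifted by a median of 0.31 (log2, Whi3-TAP minus Whi3-dRRM-TAP, 0.51 in experiment 1 and 0.13 in experiment 2) and the members by 0.41. The differences below include that shift unless given relative to the median, and so do the calls and p-values against 0. The arrays also differed in usable spots. In experiment 1, 79.8% of yeast spots had no negative flag on the Whi3-TAP array, but only 46.4% on its control. In experiment 2 these shares were 86.5% and 76.7%, a smaller gap. Flagged spots were left out, and whether the shift came from that gap or from the strains was not tested. Tests against 0 are therefore not read as strain differences. The blocked limma test against 0 called 4 of 131 members higher (1.94% of all probes) and 1 lower (0.113%), with 1 common spread for every probe. With each experiment centred on its median over all probes, a setting added after seeing the data, limma called 0 higher and 0 lower, among members and among all probes (0.00%). At an unadjusted p under 0.05 there were 16 higher and 10 lower of the 131 members, beside 245 higher and 245 lower of all 4426 probes. Without the block and without centring it also called 0 in either direction. The calls in total RNA therefore depended on the centring and the block, and under either change limma estimated a spread for each probe rather than 1 for all.

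YRO2 (YBR054W), the relative of MRH1 in the Hsp30 family, was the highest, with normalized log2 levels in total RNA of 12.2 and 12.1 in Whi3-TAP against 9.32 and 9.55 in Whi3-dRRM-TAP. The groups lay far apart, by 2.88 and 2.56 (mean 2.72, limma adjusted p = 2.9e-15 against 0), and relative to the median of all probes by 2.37 and 2.44 (mean 2.40, limma adjusted p = 0.256). The coding probe of YRO2 differed by 2.34 and 2.01, and the net log ratio of its 3′ UTR probe, 0.12, was near the middle. More cells with the transcript and more RNA per cell cannot be told apart in such cultures. HTB1 (1.32), EFT2 (1.26) and YDR034C-A (1.15) also passed against 0, and relative to the median they were at 1.01, 0.94 and 0.83 (limma, adjusted p = 0.438 for each). For HTB1 and EFT2, both low in net log ratio, the differences in total RNA were 2.03 and 1.79 in experiment 1 and 0.62 and 0.73 in experiment 2, and their coding probes had 0.11 and 0.54. PSK1 was at -2.47, from -5.41 in experiment 1 and 0.46 in experiment 2, the same saturated spot as above.

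For members without a value on every array, experiment 2 alone and Whi3-TAP alone remain. In experiment 2, 24 of 351 members lay above a limit of 1.07 set in the same way (4.64% of all probes) and 33 below -1.21 (5.35%). In Whi3-TAP over total RNA, 19 of 303 lay above 0.98 (4.88%) and 38 below -0.95 (4.23%). Of 152 members with both these measures but no net log ratio, 3 were above both limits. BSC1, a cell surface protein, had 2.20 and 2.93 in Whi3-TAP and 1.15 on Whi3-dRRM-TAP array 2. PLB1, a phospholipase B, had 1.72 and 1.09 against -0.45, and IML2 had 1.50 and 1.00 against -0.15. The Whi3-TAP values of all 3 lay above their control value, for which 1 array was at hand. The coding probes of PLB1 and IML2 had net log ratios of 0.49 and 1.39.

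The study prints a partial list of the mRNAs that it takes as Whi3 targets. They were found both on these arrays and in an earlier immunoprecipitation of Whi3 by another group. Since the list rests in part on these arrays, the direction of its genes here is not independent evidence. The complete list was not used here, and SNQ2, ranked as a target elsewhere in the study, is not in the partial one. The genes of 7 members are in the partial list, namely SAM1, MRH1, HYP2, TEF4, HXT1, BSC1 and ANB1. The first 4 had a net log ratio, all above the limit, with a median of 2.00. HXT1, a low-affinity glucose transporter, had 1.30 and 1.04 in Whi3-TAP and 0.21 on Whi3-dRRM-TAP array 2, and its coding probe had a net log ratio of 1.76. The 3′ UTR probe of ANB1, the eIF5A isoform of cells without oxygen, gave no value on any array, while the ANB1 coding probe had 2.55. The G1 cyclin CLN2 had a net log ratio of 0.52 at its 3′ UTR probe, and its copy CLN1 had none. CLN3 itself had no 3′ UTR probe among the members.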

How the data were processed

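The authors deposited, per the file headers, each spot's foreground intensity and local background in the Cy3 and Cy5 channels, a flag, the percent of saturated pixels, and a spot log2 ratio, which ran as total RNA over immunoprecipitate (r from -0.96 to -0.79 with the values used here). The log2 ratios of the deposited series matrix, 1 for each probe, run in the opposite direction, are not centred (column medians 0.21 to 1.08), cover 356 of the 3′ UTR probes, and were used as an alternative only. Dye orientation was the same on every array. No genome build is named in the array annotation.

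Negatively flagged spots were left out, background was corrected with normexp (offset 50), loess was applied to the ratios of each array, and spots were averaged. Tests were 2-sided in limma 3.58.1 (R 4.3.3), with Benjamini-Hochberg adjustment at 0.05 over all probes with values on all 4 arrays, the experiment as a block for the net log ratio and total RNA, and no block within a group. The block left 1 residual degree of freedom beside a prior of 3.18. The pairing comes from the study's methods, and deviations of paired arrays from their group means had r = 0.208 over all probes. Total RNA was scaled between arrays by Aquantile, with an infinite prior (2.98 with each experiment centred on its median). Folds of the net log ratio are given where an immunoprecipitate of each group was above background. Otherwise the fold is of the immunoprecipitate signal alone. The control was then raised, where lower, to the smallest signal of any probe above background on that array. Such a fold is an estimate and not a strict lower bound. Systematic names of 455 members matched RefSeq. The fit of the net log ratio and that of the difference between 3′ UTR and coding probe were tested on simulated data. For the fit within a group only the estimates were compared with simulated means, and total RNA was not simulated. Figures used Python 3.11.15 and matplotlib 3.10.9.

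The members and gene lists were chosen with earlier results of these data known. Named are the 10 highest and 5 lowest members by net log ratio (same sign in both experiments, above background in an immunoprecipitate), the 5 widest gaps to the coding probe each way, the 3 highest and lowest in each group and in total RNA, the study's partial list of targets, up to 4 members of a family each way, and the widest and narrowest gene pairs. Others above the limit, and members that passed a test, were named after their values were seen.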

Additional observations from a re-analysis of the deposited data

How the results depend on the processing

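The 14 members above the limit in net log ratio (of 131, against 5.11% of all probes) became 9 with median centring of each array (5.31% of all), 5 of 102 with dim probes left out (5.02%), 8 of 88 with at least 2 spots on every array (4.79%), 9 of 86 in the series matrix (5.87%) and 24 of 351 in experiment 2 alone (4.64%), an alternative added after seeing the data. In each setting, also with an array left out, the limits were set again over its own probes. With dim probes left out the members' share above that setting's limit was no longer above the share of all probes. The 3 below the lower limit became 5 with no background correction, 5 with median centring, 16 with flagged spots kept (480 members), 1 with at least 2 spots, 1 in the series matrix and 33 in experiment 2 alone. The 0 members higher in limma became 2 without the replicate block, 14 with no background correction, 4 with median centring, 32 with flagged spots kept, 7 with the median over spots, 7 with dim probes left out, 9 with at least 2 spots, 12 with an intensity trend and 4 in the series matrix. The 0 lower stayed at 0 without the block and became 3, 5, 52, 2, 4, 2, 5 and 8 under the other settings in that order. Without the block 1.60% of all probes were called higher. Under most settings the share of all probes was not computed for the calls or for the counts below the limit. Those counts are therefore not read as results about the members. SAM1 and MRH1 passed under 9 of 11 alternatives, HYP2 and CYC7 under 8 of 11, HTB1 under 6 of 8 and CAN1 under 6 of 11. The cause of these shifts was not tested.

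Leaving out 1 array at a time gave 10 to 23 members above the limit, 3 to 12 below, 0 to 23 higher and 0 to 16 lower. The lone array was then taken to vary like the other group. The median net log ratio of 0.05 (-0.08 over all probes) became -0.34 in the series matrix, which is not centred and where all probes had -0.48, and -0.21 in experiment 2 alone (-0.07 over all probes). The median difference of 3′ UTR and coding probe, -0.13, became -0.37 with median centring and -0.33 in the series matrix, and ran from -0.34 without Whi3-TAP array 1 to 0.10 without Whi3-TAP array 2. Genes whose probes differed, 0 of 96, became 1 with no background correction, 18 with median centring and 5 with flagged spots kept, and 0 to 4 with an array left out (4 without Whi3-TAP array 1). The 5 calls in total RNA became 0 without the replicate block, and 0 with each experiment centred on the median of all probes.

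Over total RNA within a group, the 17 higher and 14 lower in Whi3-TAP became 30 and 26 with no background correction and 9 and 0 in the series matrix, and the 14 lower became 6 with median centring. In Whi3-dRRM-TAP the 8 and 5 became 5 and 3 with no background correction, 20 and 13 with median centring and 18 and 1 in the series matrix. The share of all probes was not computed for these alternatives, so their counts are not read as results about the members.

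Net log ratios of named members changed sign in 19 cases, against 314 that stayed on the same side and 107 that newly passed. With the series matrix they were -0.57 for SKN1, -0.089 for PSR1 and -0.21 for PHO3, of which PSR1 and PHO3 stayed above that table's median of -0.48. HSP33 had 0.037 with no background correction and RPS4A 0.22 with median centring. YRO2 had -0.85 with median centring, -0.00086 with the median over spots, -1.44 in the series matrix, and -0.56 and -0.06 without replicate 1 of Whi3-TAP and of Whi3-dRRM-TAP. PMA2 had 0.29 with median centring, 0.076 with flagged spots kept, 0.0049 in the series matrix and 0.0012 without Whi3-dRRM-TAP array 2. With an array left out the range was -1.48 to 0.73 for ENO2 and -1.06 to 0.64 for PMA1 (both highest without Whi3-TAP array 2, PMA1 also 0.16 without Whi3-dRRM-TAP array 1), -0.031 (without Whi3-dRRM-TAP array 1) to 2.29 for YIL060W, -0.17 (without Whi3-TAP array 1) to 1.39 for TDH2, and -0.56 to 0.81 for YRO2. Counts of motifs after the stop codon were not run. Signal over background limits the members, since on Whi3-dRRM-TAP array 1 the immunoprecipitate of 16 of 480 exceeded background.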
